A study of Oryctolagus cuniculus with 4 samples.

Results

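E2F6, MOSPD2, SPTLC1 and STEAP2 are 4 genes selected on their signal in the rabbit ligamentum flavum under concentrated mechanical stress, which was at least 2-fold above both control arrays. They are 4 of 1489 genes that could be named, and are read by 6 of 43603 distinct probes. The values that chose them are the ratios of the stressed level to the 2 controls, and those ratios are given below as a description only. The ligamentum flavum is an elastic ligament between the laminae of adjacent vertebrae. Total RNA came from male rabbits aged 34 weeks, 16 weeks after surgery at 18 weeks of age. Per the labels, surgery removed supraspinal muscle at L3/4, and the adjoining levels L2/3 and L4/5 received a posterolateral fusion with instrumentation. There were 4 groups: the stress-concentrated level L3/4 (the labels' ISC level), the fused levels L2/3 and L4/5, the control of L3/4, and the control of L2/3 and L4/5. The labels attach the same surgery to all 4 samples, and whether the control animals were operated on is not given. Whether a sample holds several animals, or both fused levels, is not given either.

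E2F6 is a member of the E2F family of transcription factors that represses transcription and works with Polycomb proteins, without the domain through which other E2Fs activate genes. SPTLC1 is a subunit of serine palmitoyltransferase, the enzyme that joins serine to a fatty acyl chain in the first step of sphingolipid synthesis. MOSPD2 is a membrane protein of the endoplasmic reticulum that binds proteins of other organelles and so holds the membranes close together. STEAP2 is a metalloreductase of the Golgi and endosomes that reduces ferric iron and cupric copper before uptake.

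Every group has a single one-colour Agilent array, and all 4 arrays lay on 1 slide. No ratio below therefore has a p-value or can be set against differences among rabbits, and 4 arrays limit how precise it is. The error given as ± is the scanner software's own estimate for a spot, carried to the log2 scale, and covers the reading of the spot alone. Between 59.6% and 67.9% of probes were well above background on an array. Replicate spots of 1 probe had a median SD of 0.116 to 0.148 on the log2 scale. Levels are log2 signals minus the 75th percentile of their array, so 0 is the 75th percentile, and levels of different probes are not compared. Of the 6 fibroblast markers of tendon and ligament that could be named, TNMD (tenomodulin) failed to rise well above background on the fused array, while COL1A2, DCN, LUM, BGN and OGN were well above it on all 4 arrays. ELN, the elastin gene, is not analysed here.

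E2F6 (XM_002722396, 1 probe) was high on the ISC and fused arrays and low on both control arrays. Its signal was 223 ± 22.4 at the ISC level and 179 ± 17.96 at the fused levels, against 21.4 ± 2.46 in the L3/4 control and 49.3 ± 5.18 in the L2/3 and L4/5 control. Scaled to the arrays, these became 1.25 at the ISC level, 1.07 at the fused levels, -1.32 in the L3/4 control and -0.56 in the L2/3 and L4/5 control. The ISC level was thus higher by 2.58 ± 0.22 than the control of L3/4 and by 1.81 ± 0.21 than the other control, which are 5.96-fold and 3.51-fold. The fused array did not enter the choice of the genes. It was higher by 2.39 ± 0.22 than the control of L3/4 and by 1.63 ± 0.21 than the control of its own levels, on the log2 scale. Between the ISC level and the fused levels the difference was 0.18 ± 0.20, within the reading error of the spots.

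SPTLC1 (XM_008257928, 1 probe) had the same order of groups apart from the top pair. Its signal was 125 ± 12.5 at the ISC level and 126 ± 12.6 at the fused levels, against 15.8 ± 2.01 in the L3/4 control and 31.5 ± 3.53 in the L2/3 and L4/5 control. The scaled levels were 0.41 at the ISC level, 0.56 at the fused levels, -1.75 in the L3/4 control and -1.205 in the L2/3 and L4/5 control. On the log2 scale the ISC level was higher by 2.16 ± 0.23 than the control of L3/4 and by 1.61 ± 0.22 than the other control. The fused levels were higher by 2.31 ± 0.23 than the control of L3/4 and by 1.76 ± 0.22 than the control of their own levels. The ISC level and the fused levels differed by -0.15 ± 0.21, again within the reading error.

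MOSPD2 (XM_008272359, 2 probes) was high on the ISC array alone. The brighter probe had a signal of 69.3 ± 7.07 at the ISC level and 12.1 ± 1.91 at the fused levels, against 7.31 ± 1.44 in the L3/4 control and 11.5 ± 1.98 in the L2/3 and L4/5 control. Its scaled levels were -0.44 at the ISC level, -2.82 at the fused levels, -2.87 in the L3/4 control and -2.66 in the L2/3 and L4/5 control. The last 3 lie close to the dimmest signals marked as well above background, which were 6.95 at the fused levels, 6.01 in the L3/4 control and 7.82 in the L2/3 and L4/5 control. The ISC level was higher by 2.43 ± 0.32 than the control of L3/4, by 2.23 ± 0.29 than the other control and by 2.38 ± 0.27 than the fused levels. The fused levels differed by 0.05 ± 0.36 from the control of L3/4 and by -0.15 ± 0.34 from the control of their own levels. The other probe of the same transcript was not well above background on any array, with signals of 2.68 at the ISC level, 1.602 at the fused levels, 1.28 in the L3/4 control and 1.78 in the L2/3 and L4/5 control. The difference for MOSPD2 therefore rests on 1 probe and 1 array.

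STEAP2 (NM_001171275, 2 probes) was also high on the ISC array alone, and both of its probes showed this. The brighter probe had a signal of 192 ± 19.3 at the ISC level and 27.9 ± 3.16 at the fused levels, against 27.3 ± 2.99 in the L3/4 control and 44.9 ± 4.78 in the L2/3 and L4/5 control. The second probe had 123 ± 12.4 at the ISC level and 19.4 ± 2.52 at the fused levels, against 24.4 ± 2.77 in the L3/4 control and 29.5 ± 3.46 in the L2/3 and L4/5 control. On both probes the fused levels had the lowest scaled level, -1.61 on the brighter and -2.14 on the second. The ISC level was higher than the control of L3/4 by 2.003 ± 0.21 on the brighter probe and by 1.52 ± 0.22 on the second. It was higher than the other control by 1.73 ± 0.21 and 1.69 ± 0.22, and than the fused levels by 2.65 ± 0.22 and 2.53 ± 0.24. The fused levels were below the control of their own levels, at -0.92 ± 0.22 and -0.84 ± 0.25. To the control of L3/4 the ratios of the probes were -0.65 ± 0.23 and -1.01 ± 0.25, so only the second probe was 2-fold lower there, as were 12.9% of all features.

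**Figure D1:**
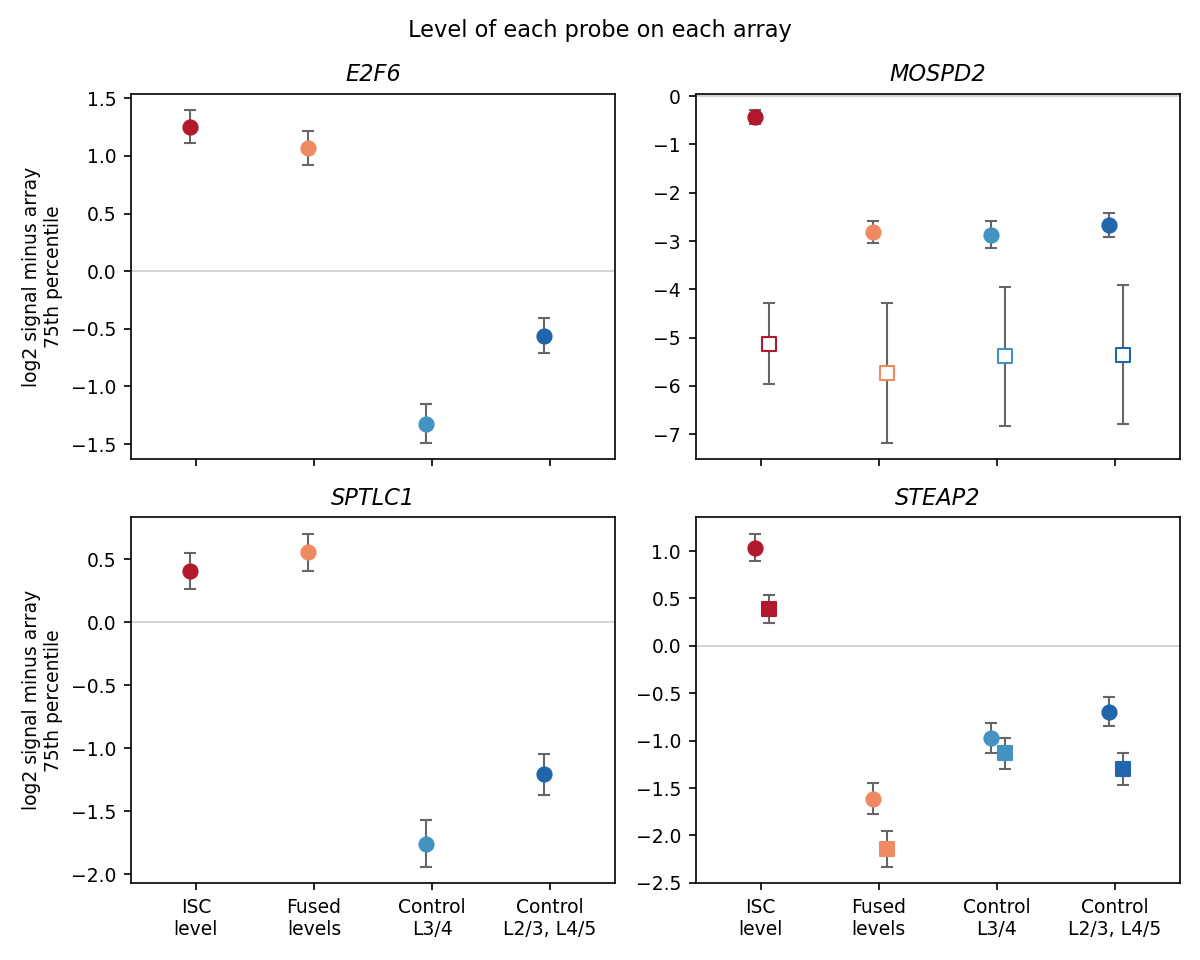
Level of each probe of E2F6, MOSPD2, SPTLC1 and STEAP2 on the 4 arrays (y axis, log2 signal minus the 75th percentile of the array; bars, the scanner software's error for the spot; circles, the brighter or sole probe; squares, the second probe; open symbols, not well above background). E2F6 and SPTLC1 are high at the ISC level and the fused levels, at 1.25 and 1.07 for E2F6, while MOSPD2 and STEAP2 are high at the ISC level alone.

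The 4 genes therefore fell into pairs by the fused array. E2F6 and SPTLC1 exceeded both controls at least 2-fold on the fused array, and MOSPD2 and STEAP2 did not. With normexp background correction and an offset of 50, SPTLC1 was at 0.91 to the control of L2/3 and L4/5 there, under 2-fold. Of all features, 11.2% were 2-fold or more above the control of L3/4 on that array, and 7.82% above the control of L2/3 and L4/5. Both control arrays also entered the choice of the genes, so the ratios of the fused levels share them with the ratios of the ISC level. MOSPD2 and STEAP2 were also 2-fold or more above the fused levels at the ISC level, as were 6.98% of all features, and the ISC array likewise entered the choice. With the same correction MOSPD2 was at 0.85 in that comparison, under 2-fold, and with its probes averaged at 1.495. STEAP2 had rank 31 and MOSPD2 rank 53 of 14564 features from the highest ratio of the ISC level to the fused levels, whereas E2F6 had rank 5835 and SPTLC1 rank 9315.

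The ratios between the control arrays are a description only, as both arrays entered the choice of the genes. The control of L3/4 was below the control of L2/3 and L4/5 by a log2 ratio of -0.76 ± 0.22 for E2F6, -0.55 ± 0.24 for SPTLC1, -0.21 ± 0.38 for MOSPD2 and -0.27 ± 0.22 for STEAP2 on its brighter probe. The second STEAP2 probe was at 0.17 ± 0.24, of the opposite sign. None of the 4 genes reached 2-fold between the controls, where 17.6% of all features were at least 2-fold apart. At that share, none among 4 genes is not a result about them. In the other comparisons the share of features 2-fold apart in either direction was 19.6% for the ISC level to the control of L3/4, 8.57% to the other control and 14.8% to the fused levels. For the fused levels it was 24.2% to the control of L3/4 and 17.0% to the control of L2/3 and L4/5.

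**Figure D2:**
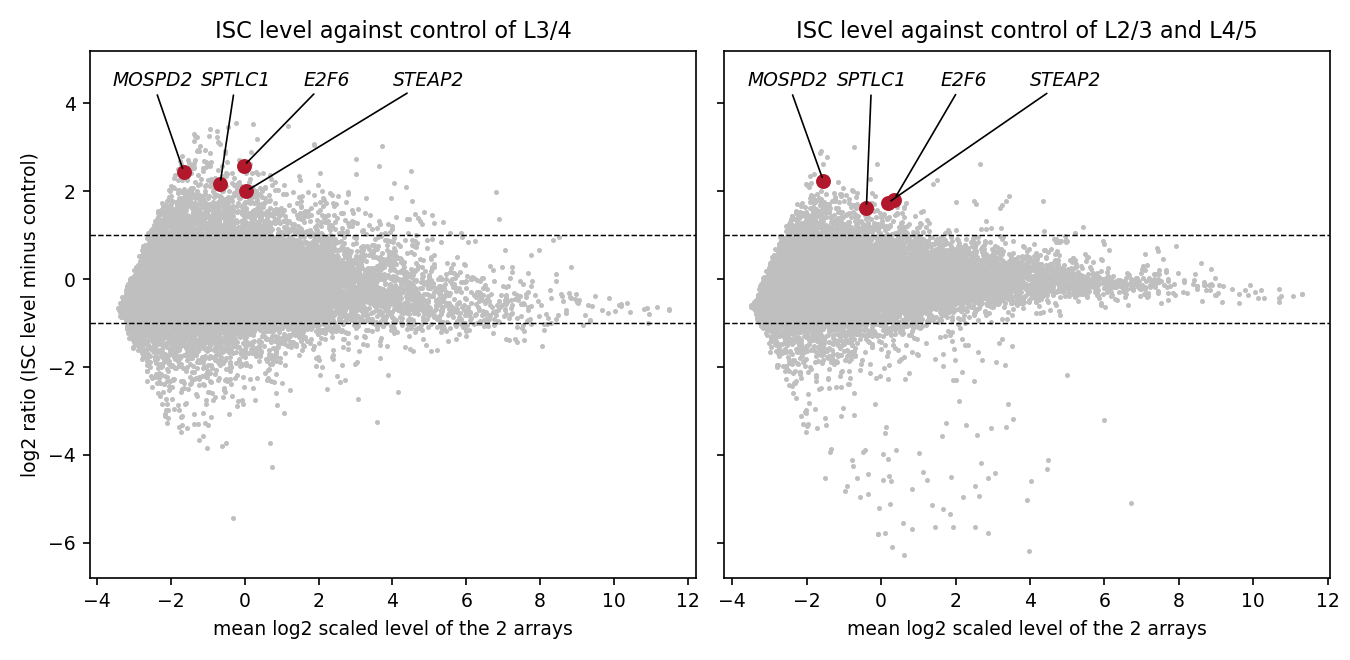
Log2 ratio of the ISC level to each control (y axis) against the mean scaled log2 level of the 2 arrays (x axis) for all features well above background on both (grey), with the 4 genes in red and dashed lines at 2-fold. The 4 genes lie at 2.003 to 2.58 against the control of L3/4 and at 1.61 to 2.23 against the other control.

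At least 2-fold above both controls were 14 of the 919 named genes that were well above background on the 3 arrays, or 1.52%. Over all features it was 159 of 13023, or 1.22%. Ordered by the smaller of the 2 ratios, MOSPD2 at 2.23, E2F6 at 1.81, STEAP2 at 1.73 and SPTLC1 at 1.61 were the highest 4 named genes. They were the only named genes at least 3-fold above both controls, by the ratios that chose them. Over all 13731 features to the control of L3/4, E2F6 had rank 50, MOSPD2 67, SPTLC1 114 and STEAP2 157. Over 14112 features to the other control the ranks were 44, 12, 96 and 64, in the same order of genes. The genes just inside the limit of 2-fold were PNPLA8 at 1.03, PCNX4 at 1.10 and RLA-DR-ALPHA at 1.14. Just outside it were APOD at 0.96 and ATP1B3 at 0.93. Other genes inside included HGF, PTGS2, PDGFD, BDKRB1, COL8A1 and SMG8.

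**Figure D3:**
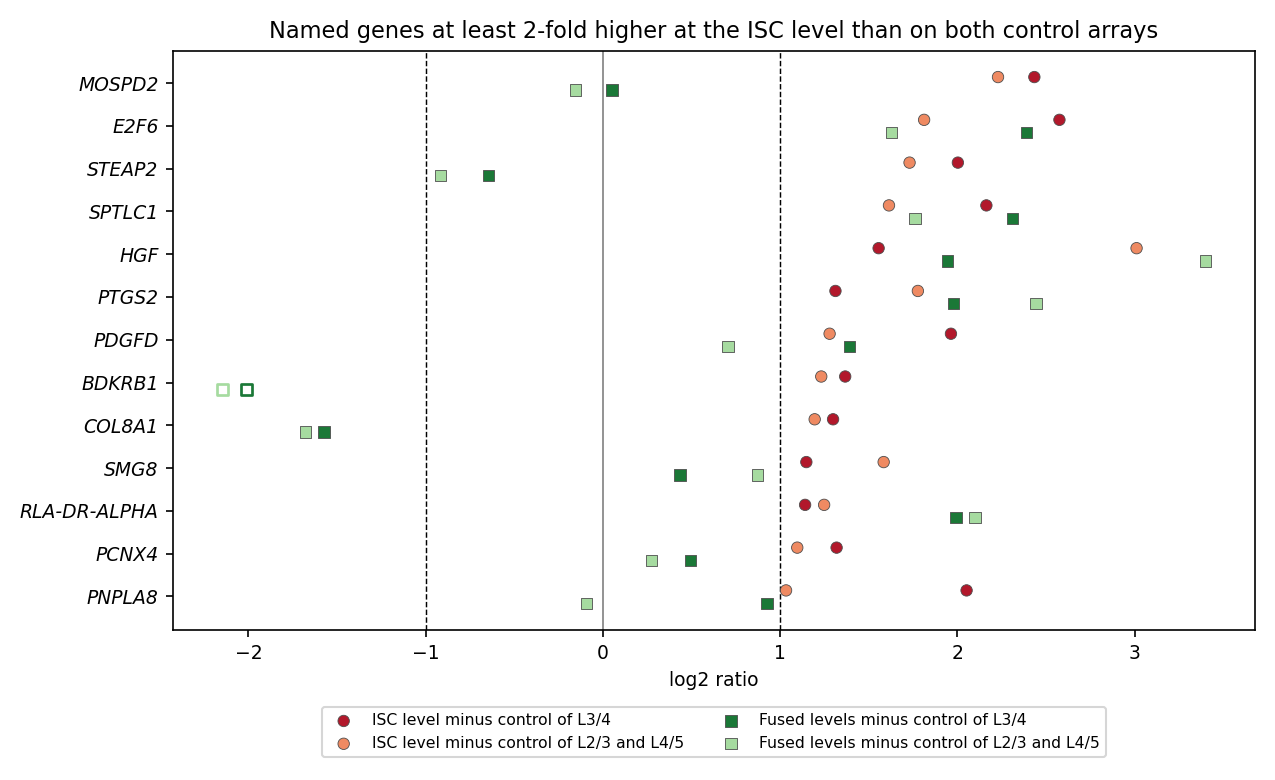
Log2 ratios (x axis) of the ISC level (circles) and the fused levels (squares) to each of the 2 controls for 13 of the 14 named genes that were 2-fold or more above both control arrays at the ISC level, with dashed lines at 2-fold (open squares, fused array not well above background). The squares of E2F6 and SPTLC1 lie between 1.63 and 2.39, those of MOSPD2 between -0.15 and 0.05 and those of STEAP2 between -0.92 and -0.65.

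The spots behind these values had no mark as outlier or saturated. The median pixel brightness before background subtraction was 264 for E2F6, 160 for SPTLC1, 104 for the brighter MOSPD2 probe and 221.5 for the brighter STEAP2 probe at the ISC level, over local backgrounds of 28 to 31. In the control of L3/4 it was 52 for E2F6, 46.5 for SPTLC1, 36.5 for MOSPD2 and 58 for STEAP2, over local backgrounds of 27 to 31. Spots within 2 rows and columns of these 5 probes had median log2 ratios of the ISC level to the control of L3/4 between -0.41 and 0.59, and to the other control between -0.34 and 0.18. For the second STEAP2 probe the 0.59 of its neighbouring spots lies on the side of its own ratio of 1.52, and the part of this in the result was not tested. How well probes of 1 transcript agree sets another limit on E2F6 and SPTLC1, which have 1 probe each. Over 874 transcripts with 2 measured probes, the log2 ratios of the ISC level to the control of L3/4 differed between the probes by a median of 0.31 and a 90th percentile of 1.04. Where the first probe of these was at 2-fold, the second was at 2-fold in the same direction in 89 of 171 transcripts. The probes of STEAP2, at 2.003 and 1.52, differed by more than that median and by less than that percentile.

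Few other genes of the pathways could be named on the array. Of the STEAP family and the genes of iron and copper handling, 8 of 40 had a name, STEAP2 included. STEAP1, the family member with no reductase domain of its own, had scaled levels of 4.10 at the ISC level and 2.14 at the fused levels, against 3.78 in the L3/4 control and 4.16 in the L2/3 and L4/5 control. STEAP1 was thus low at the fused levels as STEAP2 was, by -2.02 to the control of the same levels, but at the ISC level it was at 0.32 to the control of L3/4 and -0.06 to the other control. Of the 6 measured genes of the list other than STEAP2, 1 exceeded the control of L3/4 at least 2-fold at the ISC level and 0 were lower, where 9.11% of all features were higher and 10.5% lower. That gene was ACO1, the cytosolic aconitase that becomes an iron sensor, at 1.48, and it was at 0.12 to the other control. The lowest were PCBP1, an iron chaperone, at -0.36 and 0.05, and TF, the plasma iron carrier transferrin, at -0.22 and 0.00. The median of the 6 was 0.18 against the control of L3/4, beside -0.16 for all features, and -0.03 against the other control, beside -0.07. To the other control 0 of 6 were 2-fold higher or lower, beside 3.54% and 5.03% of all features.

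Of 55 genes of sphingolipid synthesis and turnover, SPTLC1 and 2 receptors of sphingosine-1-phosphate could be named, and the other serine palmitoyltransferase subunits are not analysed here. S1PR1, the main endothelial receptor, had a level of 0.999 at the ISC level and 1.34 at the fused levels, against -0.45 in the L3/4 control and 1.09 in the L2/3 and L4/5 control. At the ISC level it exceeded the control of L3/4 by 1.45 but was at -0.09 to the other control, so it did not share the distance of SPTLC1 from both controls. S1PR2, another receptor of the family, was at -0.20 and -0.35 at the ISC level to the same 2 controls.

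E2F6 was the only named gene of 30 of its family, the pocket proteins and the Polycomb complex it joins. Of 39 cell cycle genes that E2F factors are known to control, 3 were named, among them CCNA2 and TACC3. CCNA2, the S-phase cyclin A2, exceeded the control of L3/4 by 1.25 and the other control by 0.68 at the ISC level, and its 3 probes lay between 1.11 and 1.25 against the control of L3/4. At the fused levels CCNA2 was higher by 1.80 and 1.23 than in those controls. TACC3, a protein of the mitotic spindle, was lower at the ISC level, at -1.96 to the control of L3/4, and at 0.06 to the other control, and higher at the fused levels by 1.77 and 3.79. Of the proteins that bridge membranes at contact sites, OSBP, an exchanger of sterol and phosphoinositide, was the only one of 39 named besides MOSPD2. It was at -0.23 and 0.07 at the ISC level to the 2 controls, and at 0.58 to the fused levels.

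By likeness over the 4 arrays the 4 genes were closest to one another in the same pairs. Likeness was the Euclidean distance between log2 profiles centred on their own means, among 885 other named genes well above background on all 4 arrays. The nearest gene to E2F6 was SPTLC1 at a distance of 0.31, followed by PDGFD, a platelet-derived growth factor, at 0.82 and PAPSS2, an enzyme of sulphate activation, at 0.90. The nearest to SPTLC1 after E2F6 were HP, the haemoglobin-binding protein haptoglobin, at 0.67 and RLA-DR-ALPHA, an MHC class II chain, at 0.76. The nearest to MOSPD2 was STEAP2 at 0.63, then CD59, an inhibitor of complement, at 1.04 and PNPLA8, a phospholipase, at 1.07. The nearest to STEAP2 after MOSPD2 were COL8A1, a short-chain collagen, at 0.76 and UGGT2, a glucosyltransferase of the endoplasmic reticulum, at 0.87. Between the pairs the distances were 1.87 to 2.44. The members were chosen for a high ISC array and low controls, which constrains 3 of the 4 points of each profile without setting their values. These distances are thus a description over 4 arrays and turn largely on the fused array.

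Other cell types differed between the arrays beside these genes, and in bulk tissue fewer cells of a type and less RNA per cell cannot be told apart. The summed signal of 12 skeletal muscle markers, in units of the array's 75th percentile, was 28.1 at the ISC level and 14.6 at the fused levels, against 27.9 in the L3/4 control and 865 in the L2/3 and L4/5 control. These sums include markers not well above background, CASQ1 on the fused array and PYGM and MYOZ1 in the L3/4 control. The sum of 5 neutrophil markers was 6.46 at the ISC level and 283 at the fused levels, against 11.3 and 5.07 in those controls. For 4 adipocyte markers it was 7.83 at the ISC level and 20.0 at the fused levels, against 4.97 and 6.07 in the controls. The 1 named macrophage marker, CD14, was at 1.15 at the ISC level and 2.06 at the fused levels, against 0.70 and 0.99. Both the adipocyte sum and CD14 had the order of the 4 arrays that SPTLC1 had. Of the adipocyte markers, ADIPOQ and LPL had it, and LEP and PPARG did not. PPARG had its highest scaled level in the L3/4 control, 0.62, beside 0.41 at the fused levels and -1.37 at the ISC level. The 6 fibroblast markers summed to 742 at the ISC level and 575 at the fused levels, against 627 and 716. This is the order of the brighter STEAP2 probe, and of the single markers COL1A2 and BGN had it. DCN and OGN were instead lowest at the ISC level, and LUM and TNMD were highest in the L2/3 and L4/5 control. BGN was at -2.07, LUM at -1.36 and COL1A2 at -0.62 for the fused levels to the control of L2/3 and L4/5. DCN was at 0.07 and OGN at 0.18 there, and TNMD was not well above background on the fused array. Red cell markers, 2 in number, summed to 434 at the ISC level and 1152 at the fused levels, against 779 and 272. The 2 endothelial markers summed to 0.204 at the ISC level and 0.231 at the fused levels, against 0.811 and 0.242. Of these KDR was not well above background on the fused array and in the L2/3 and L4/5 control. The 2 markers of cartilage summed to 3.53 and 2.44, against 3.73 and 4.10. The 3 smooth muscle markers summed to 12.7 at the ISC level and 21.5 at the fused levels, against 43.2 and 25.6. Of these ACTA2 and MYH11 were highest in the L3/4 control. DES was instead highest in the L2/3 and L4/5 control, the array with the highest skeletal muscle sum. Its scaled level was 2.35 there, beside -2.23 at the ISC level, -1.94 at the fused levels and -2.51 in the L3/4 control. The part of any of these cell types in the values of the 4 genes was not tested.

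**Figure D4:**
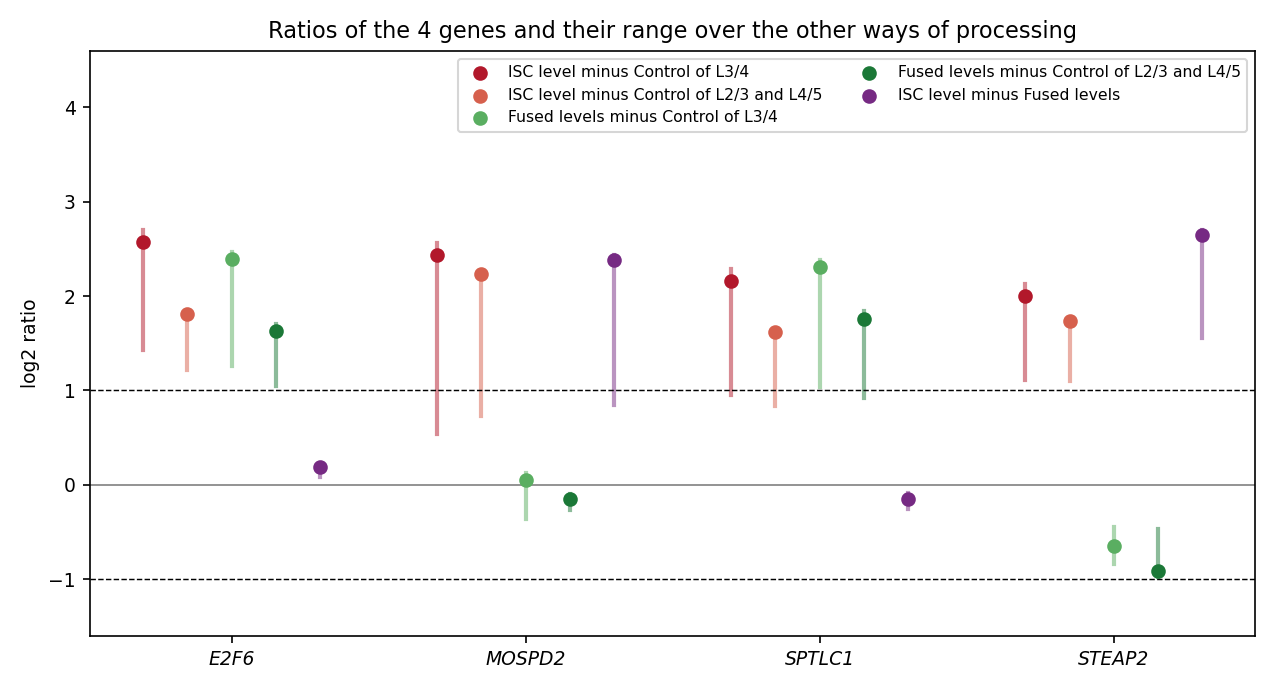
Log2 ratios (y axis) of the 4 genes in 5 comparisons, as reported (points) and over the other ways of processing (bars, lowest to highest), with dashed lines at 2-fold. The points of the ISC level to both controls lie between 1.61 and 2.58, and the bars of MOSPD2 and SPTLC1 reach below 2-fold, to 0.54 and 0.83, with normexp background correction and an offset.

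With normexp background correction and an offset of 50, MOSPD2 was at 0.54 and 0.73 and SPTLC1 at 0.95 and 0.83 to the control of L3/4 and to the other control, all under 2-fold. E2F6 was then at 1.43 and 1.22, and STEAP2 at 1.11 and 1.10. With no offset all 4 were 2-fold above both controls, MOSPD2 at 1.70 and 1.93, SPTLC1 at 1.99 and 1.43, E2F6 at 2.31 and 1.72 and STEAP2 at 1.79 and 1.65.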

How the data were processed

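Cy3-labelled material from total RNA of 4 groups was measured on 1 one-colour Agilent array each, per the labels. The submitters' processing notes name Feature Extraction 12.0.3. The deposited intensities are linear. Per the file headers the processed signal, used here, had its background subtracted and spatial trend removed, without scaling of arrays to each other. Marks for spots (well above background, outlier, saturated) are other values of the same files, per the file headers. The authors' value table holds intensities equal to the processed signal times 1 factor per array, and was an alternative; how the factors were chosen is not given in the sources used here. Medians of its columns are 516 (ISC level), 498 (fused levels), 442 (control of L3/4) and 504 (the other control).

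Here log2 of the processed signal was taken, spots of 1 probe were averaged, and the 75th percentile of each array was subtracted. Control spots and 3 to 7 outlier spots per array were left out, which removed 7 probes, and no spot was saturated. Unversioned accessions were matched to RefSeq's gene table for mOryCun1.1, which served for names and gene order only, as the arrays refer to another build. This named 3792 probes (8.70%) and 1489 genes. Features are named genes, or the files' systematic names where no symbol matched (22901 in all), each represented by its probe with the highest mean level. A ratio was used where its feature was well above background on both arrays, and those of 2-fold or more were counted, untested. The members, gene lists, fold size and naming rule were chosen with earlier results of these data known. The genes named are the members, the pathway list members with the 2 highest and 2 lowest ratios at the ISC level to the control of L3/4 (and STEAP1, after its values were seen), the 3 nearest profiles, and the genes at the limit of the rule. Alternatives were other scalings, normexp (limma 3.58.1 in R 4.3.3), filters, fold sizes and the mean over probes. Normexp used median spot signals. The search for motifs in promoters and printing of sequences were not run, as no sequence table was used here. The counting of 2-fold features was tested on simulated data. A few genes that the naming rule covers are not reported here.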

Additional observations from a re-analysis of the deposited data

Results flagged for a closer look

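The difference from the control of the same level had opposite signs for the stress-concentrated level and the fused levels in 2 of the 4 genes. The choice of the genes made the first positive in all 4. The median of all features for the fused levels to the control of L2/3 and L4/5 was -0.13, so a negative sign there was common. Among 13715 features in that comparison MOSPD2 was at percentile 48.8, near the middle, and STEAP2 at percentile 10.6. The share of all features with opposite signs was not counted, so the count of 2 of 4 is a description only. MOSPD2 was at 2.43 for the ISC level to the control of L3/4 and at -0.15 for the fused levels to the control of L2/3 and L4/5, the second within its reading error of 0.34. STEAP2 was at 2.003 and at -0.92 in the same comparisons, and its second probe at 1.52 and -0.84. These are single arrays on each side, so the difference between the comparisons was not tested. E2F6 and SPTLC1 were higher in both.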

How the results depend on the processing

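With normexp and an offset of 50 only E2F6 and STEAP2 were 2-fold above both controls, the ratios the genes were chosen by. The same setting took SPTLC1 to 0.91 for the fused levels to the control of L2/3 and L4/5 and MOSPD2 to 0.85 for the ISC level to the fused levels. The offset adds a constant to every signal before the log, which by construction draws dim signals together. Normexp with no offset was chosen after seeing the data. The control ratio of MOSPD2 took the other sign with normexp, at 0.19 with the offset and 0.23 without, beside -0.21, as did its ratio of the fused levels to the control of L3/4, at -0.31 and -0.36, at -0.07 with quantile normalization and at -0.15 with its probes averaged, beside 0.05. Averaging its probes also moved MOSPD2 to 1.35 against the control of L3/4 and 1.23 against the other control. No ratio of 2-fold or more changed sign. The number of named genes at least 2-fold above both controls, 14, was 3 with normexp and an offset, 48 when 1 array well above background sufficed, 51 at 1.5-fold and 4 at 3-fold.

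Counts of features at least 2-fold apart, given in the order ISC level to control of L3/4, ISC level to the other control, fused levels to control of L2/3 and L4/5, fused levels to control of L3/4, ISC level to fused levels, and control of L3/4 to the other control, were 2688, 1209, 2328, 3228, 2149 and 2309. They were 523, 176, 704, 858, 702 and 418 with normexp and an offset, 4656, 2480, 4032, 5504, 3592 and 4217 when 1 array well above background sufficed, 6094, 3555, 5052, 6341, 4864 and 5120 at 1.5-fold, and 799, 352, 961, 1295, 862 and 763 at 3-fold. The share of calls that were higher at the ISC level than in the control of L3/4 was 46.5%, 58.9% under the authors' scaling (median of all features -0.04, beside -0.16) and 66.3% with normexp and an offset. With normexp and an offset it was 26.7%, 62.1%, 65.4%, 36.2% and 33.5% in the other 5 comparisons, beside 41.3%, 46.1%, 46.5%, 47.3% and 47.7%, in the order above. No paired analysis was possible because each group has 1 array. Signal over background limits MOSPD2 most, whose control signals lie near the dimmest values marked as well above background.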

Other observations

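Of the 10 protein-coding genes nearest to STEAP2 in the RefSeq order of mOryCun1.1, 5 on each side, 4 could be named, all well above background on the 4 arrays. The ISC level was higher than the fused levels by 2.12 for CDK14, a cyclin-dependent kinase, with 2 probes at 2.12 and 2.44, and by 1.96 for STEAP1, with 3 probes between 1.73 and 2.02. It was at 0.09 for CLDN12, a claudin of tight junctions, and at 0.14 for SRI, the calcium-binding protein sorcin, whose 4 probes ranged from -2.17 to 0.14. Of all features, 6.98% were 2-fold or more higher at the ISC level than at the fused levels. To the control of L3/4 and to the other control, CDK14 was at 0.33 and 1.28 at the ISC level, so it was 2-fold above only the other control. STEAP1 was at 0.32 and -0.06, CLDN12 at -1.04 and -0.49 and SRI at 0.97 and 0.58 in the same comparisons. The fused levels of STEAP1 were at -1.64 and -2.02 to those controls. These genes were looked up after the values of STEAP2 were seen. No gene within the same distance of E2F6 or MOSPD2 could be named, and the 2 near SPTLC1 were not well above background on any array.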
